A study of Mus musculus with 6 samples.

Results

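Csn3, which encodes the milk protein κ-casein, and Wfdc18, which encodes a small secreted whey-acidic-protein-type protein, were followed through 3 single-cell RNA libraries of the mouse submandibular gland. They are 2 of the 32285 genes listed in each library and were found by their symbols in all 3 gene lists. Both were selected on their unique molecular identifier (UMI) counts in barcodes of these libraries, so their levels are given as a description, without a test. The mice were wild-type C57BL/6J females, and the labels give 8-10 weeks as the age of every group. The first group was whole epithelium (Epcam+) from left glands taken 90 days after 30 Gy of image-guided radiation to that gland. The second was the basal sort (Epcam+, Cd49f-high) of untreated glands, and the third was whole epithelium (Epcam+) of untreated glands. In all 3 groups dead cells and cells positive for Cd3, Cd16/Cd32, Cd31 or Cd45 had been gated out. Each group was 1 library that pooled 3 mice marked with hashtag antibodies, so group and library cannot be told apart.

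In the lactating mammary gland κ-casein coats and stabilises the casein micelles of milk, and its gene lies beside those of the other caseins. Wfdc18, also known as Expi or WDNM1, belongs to the four-disulfide core family of small secreted proteins, many of which inhibit proteases, and is a known gene of mouse mammary epithelium. The submandibular gland secretes saliva from acini through intercalated, striated and granular ducts, with contractile myoepithelial cells and basal duct cells on the outer side of the epithelium.

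In the RefSeq annotation of GRCm38.p6, Csn3 (ENSMUSG00000001622) lies at chr5:87925579-87932550 and Wfdc18 (ENSMUSG00000000983) at chr11:83709004-83711360. The 250 bases before the Wfdc18 start, at chr11:83708754-83709003 on the plus strand, are printed from RefSeq to show the promoter of a gene whose level differed widely between cell types, with the TATAAA match in capitals.
Wfdc18 promoter: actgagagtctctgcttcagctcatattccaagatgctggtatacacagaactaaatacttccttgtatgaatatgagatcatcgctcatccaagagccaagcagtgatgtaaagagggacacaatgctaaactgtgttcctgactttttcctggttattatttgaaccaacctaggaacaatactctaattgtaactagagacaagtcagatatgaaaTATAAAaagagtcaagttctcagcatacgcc
The TATAAA match, the letters of the TATA box, began 31 bases upstream of the start. Searched on both strands, TATAAA was present in 12.4% of 32851 mouse promoter windows of that length. The letters TTCNNNGAA, bound by the STAT family of transcription factors, had 0 matches in this window and were present in 7.02% of the windows.

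The libraries held 3319 barcodes for the irradiated epithelium, 5044 for the basal sort and 8277 for the untreated epithelium, with 58485558, 59207148 and 137835128 UMIs. After filters on cells, hashtags and doublets, 2005 irradiated, 3068 basal sort and 2090 untreated cells were kept and assigned to a mouse. The untreated library was of lower quality, with a median mitochondrial share over all barcodes of 19.3%, against 5.25% in the irradiated and 5.19% in the basal sort library. It also had more cells without a hashtag call, 43.4% of those past the filter, against 11.2% in the irradiated and 22.6% in the basal sort library. The libraries shared few barcode sequences, 8 between irradiated and untreated, 1 between irradiated and basal sort, and 15 between basal sort and untreated. The kept cells formed 21 clusters, which were made without Csn3 and Wfdc18 and named after lists of marker genes ("X-like").

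Csn3 was detected in irradiated epithelium and in the basal sort and was close to absent from untreated whole epithelium. Its level is given as CPM, a mouse's Csn3 UMIs scaled to 1000000 UMIs of its kept cells. In irradiated epithelium mice 1, 2 and 3 had 96.3, 4.0 and 23.9 CPM (41.4 ± 48.6, SD, n = 3), from 651, 108 and 241 UMIs. The basal sort had 14.1, 0.852 and 5.94 CPM (6.96 ± 6.67, SD, n = 3), from 254, 8 and 85 UMIs. Untreated epithelium had 0, 0 and 0.0878 CPM, from 1 UMI in mouse 3.

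All 3 irradiated and all 3 basal sort mice were above every untreated mouse, while irradiated and basal sort mice overlapped. In either direction, 58% of 11887 tested genes did not overlap for irradiated against untreated epithelium. The share was 77.3% of 12884 for the basal sort. Over the summed kept cells the irradiated-to-untreated ratio was 872, with a 95% interval of 156 to 34489, and the basal sort-to-untreated ratio was 318, with an interval of 56.7 to 12587. These intervals cover counting error only. The log2 ratio of the group means was 10.47 for irradiated over untreated, 8.90 without irradiated mouse 1 and at least 8.53 without untreated mouse 3, where 3 counts stood for 0. For basal sort over untreated it was 7.89, 6.86 without basal sort mouse 1 and at least 5.96 without untreated mouse 3. Over all deposited barcodes, with or without a hashtag, Csn3 had 2250 UMIs in the irradiated library (38.5 CPM), 608 in the basal sort library (10.3 CPM) and 1 in the untreated library (0.00726 CPM). The untreated library had the most barcodes and UMIs but the fewest UMIs per barcode, with a median of 6755, against 16995 in the irradiated and 11985 in the basal sort library. The 1 untreated UMI lay in cluster 17, fibroblast-like, with 13 untreated cells.

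**Figure D1:**
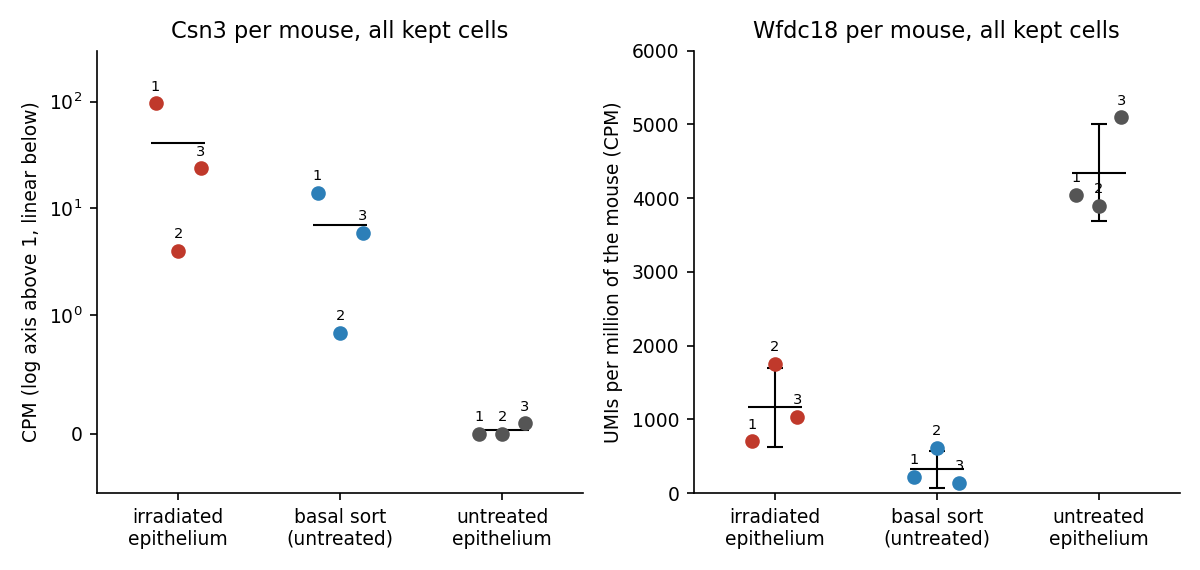
Csn3 (left, log axis above 1 CPM and linear below) and Wfdc18 (right, linear axis) in CPM of each mouse's kept cells, for irradiated epithelium, basal sort and untreated epithelium. Numbered points are mice and horizontal lines are means, and for Wfdc18 the bars show the SD of 3 mice. Csn3 reached 96.3 CPM in irradiated mouse 1 and at most 0.0878 CPM in untreated mice, and Wfdc18 was lowest in the basal sort.

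Few barcodes carried nearly all Csn3 UMIs. In the irradiated library 47 of 3319 barcodes had at least 1 Csn3 UMI, and 21 barcodes with 3 or more held 2222 of the 2250 UMIs. Of the other irradiated barcodes, 24 had 1 UMI and 2 had 2. For the basal sort, 32 of 5044 barcodes had a Csn3 UMI, and 18 with 3 or more held 594 of the 608 UMIs. The other 14 had 1 UMI each. The limit of 3 UMIs was set after these counts were seen. Barcodes at or above it are called Csn3-rich here.

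Csn3-rich barcodes ran over a wide range of counts. In irradiated epithelium they held between 3 and 653 Csn3 UMIs with a median of 51, and in the basal sort between 3 and 164 with a median of 21.5. The irradiated Csn3-rich barcodes had a median of 19966 total UMIs, against 16995 over all irradiated barcodes. Those of the basal sort had a median of 6711, against 11985 over all basal sort barcodes. Their median mitochondrial share was 2.18% in the irradiated and 4.54% in the basal sort library.

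All 3 hashtag mice of both groups held Csn3-rich cells. Among the 14 kept in irradiated epithelium, 6 came from mouse 1, 5 from mouse 2 and 3 from mouse 3. Of the 7 not kept, 4 had no hashtag call, 1 was a hashtag doublet, 1 was removed for its doublet score and 1 failed the cell filter. Among these 7 were the barcode with 653 Csn3 UMIs (removed for its doublet score) and the one with 312 (no hashtag call), the highest counts seen. Among the 9 kept in the basal sort, 5 came from mouse 1, 1 from mouse 2 and 3 from mouse 3. Of its 9 others, 6 had no hashtag call, 1 was a hashtag doublet and 2 were removed for their doublet score.

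**Figure D2:**
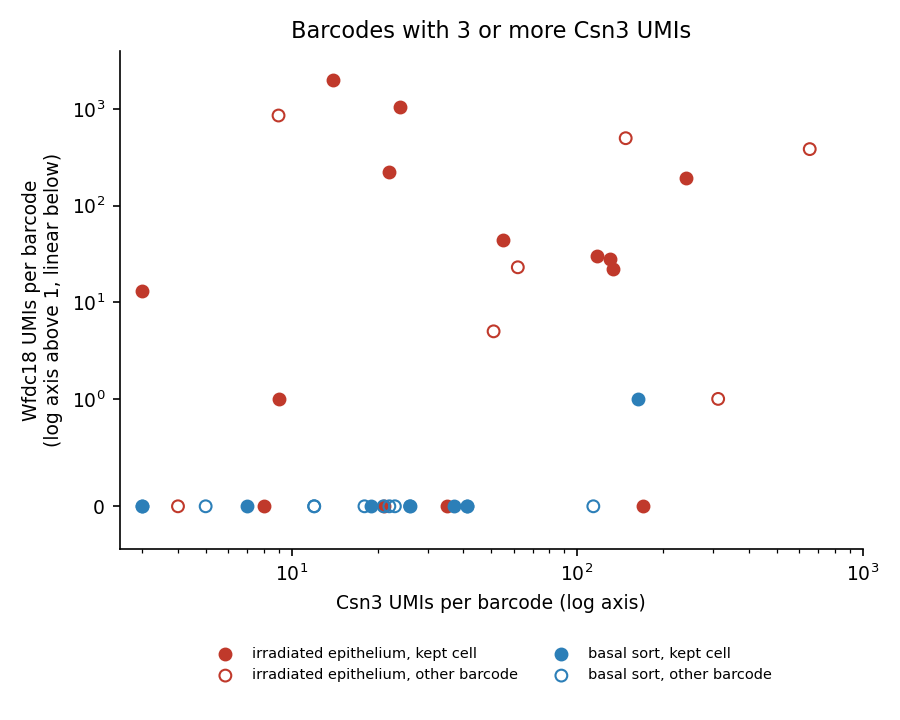
Each point is 1 barcode with 3 or more Csn3 UMIs, placed by its Csn3 UMIs (horizontal, log axis) and its Wfdc18 UMIs (vertical, log above 1 and linear below). Filled points are kept cells and open points are other barcodes. The 21 irradiated barcodes spread between 0 and 2013 Wfdc18 UMIs, while the 18 basal sort barcodes had 0 or 1.

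In the joint clustering Csn3 sat in different clusters in the 2 libraries that held it. In irradiated epithelium cluster 14 held 907 of the 1000 kept UMIs (90.7%) in 9 of its 92 cells. Its mice 1, 2 and 3 had 2523, 19.2 and 857 CPM, from 14, 64 and 14 cells. Cluster 14 had 5 of 6 intercalated duct markers raised, but its 10 leading genes (Cxcl2, Osbpl3 and Bpifa2 first) held the acinar marker Bpifa2 and no intercalated duct marker, so it is given by number. All 4 irradiated cells of cluster 4, myoepithelial-like, were Csn3-rich and held 67 UMIs. The remaining Csn3-rich cell lay in cluster 18, granular duct-like, with 9 UMIs.

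In the basal sort cluster 4 held 342 of the 347 UMIs (98.6%), with 9 Csn3-rich cells among 216. Its mice 1, 2 and 3 had 215, 25.1 and 125 CPM, from 117, 30 and 69 cells. Csn3 thus marked a minority of each cluster, 9.78% of irradiated cluster 14 (exact 95% interval 4.57% to 17.8%) and 4.17% of basal sort cluster 4 (1.92% to 7.76%). These intervals pool the cells of 3 mice and leave out the spread between mice. By mouse, 5 of 14, 1 of 64 and 3 of 14 cells of irradiated cluster 14 were Csn3-rich in mice 1, 2 and 3. In basal sort cluster 4 they were 5 of 117, 1 of 30 and 3 of 69 cells. Untreated epithelium had only 4 cells in cluster 4 and 3 in cluster 14, with 0 Csn3 UMIs in both. Its absence there was thus measured over few cells of the clusters that held Csn3 elsewhere. The 521 untreated cells of cluster 7, the intercalated duct-like cluster that holds most such cells there, also had 0 UMIs. With 3 counts put for 0, this allows a share of up to 0.576% of cells with a UMI. The 10 irradiated and 111 basal sort cells of cluster 7 had 0 as well, and the same rule allows up to 2.70% of those of the basal sort.

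Single Csn3 UMIs outside these clusters were rare. In the irradiated ionocyte-like cluster 20, with a median depth of 17141 UMIs, 0.646% of 619 cells had a Csn3 UMI and none had 3. Irradiated cluster 14, at a median of 17461 UMIs, had 9.78%. In the basal sort, 0.248% of the 807 cells of cluster 1, basal duct-like at a median of 15346 UMIs, had one, against 4.63% of cluster 4 at a median of 9698.

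The cluster name of the irradiated Csn3-rich cells depended on which cells were clustered together. When irradiated cells were clustered alone, 12 of the 14 kept Csn3-rich cells and 960 of the 1000 UMIs (96.0%) fell into 1 cluster of 18 cells. Of these 18 cells, 14 came from joint cluster 14 and 4 from joint cluster 4. That small cluster had 6 of 7 myoepithelial and 8 of 8 basal duct markers raised, and Ecrg4, Igfbp2, Trf, Apoe, Acta2 and Tagln were among its leading genes beside Csn3. Another 75 cells of joint cluster 14 fell into an acinar-like cluster of 108 cells that held 15 Csn3 UMIs.

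Marker lists over the Csn3-rich barcodes were mixed. The 7 myoepithelial markers summed to 3450 CPM in irradiated Csn3-rich barcodes (6 detected), against 50.8 CPM over all irradiated barcodes. The same markers in Csn3-rich barcodes of the basal sort summed to 2763 CPM (5 detected), against 806 CPM over all its barcodes. Acta2, the smooth muscle actin of myoepithelial cells, averaged 9500 CPM in the 4 irradiated Csn3-rich cells of cluster 4 and 59.7 CPM in the 9 of cluster 14. The 8 luminal duct markers, keratins and claudins among them, summed to 8213 CPM in irradiated and 1180 CPM in basal sort Csn3-rich barcodes. Basal duct markers, 8 of 8 detected in both libraries, summed to 3054 CPM in irradiated Csn3-rich barcodes, against 254 CPM over all irradiated barcodes, and to 10686 CPM in those of the basal sort, against 7524 CPM over all its barcodes. Sublingual mucous markers summed to 7805 CPM in irradiated Csn3-rich barcodes (3 of 6 detected), against 421 CPM over all irradiated barcodes, and to 7.07 CPM in those of the basal sort (1 of 6 detected), against 2.33 CPM over all its barcodes. Most of the irradiated sum lay in few barcodes, 1 of which, with 653 Csn3 and 1818 Dcpp3 UMIs, reached 69603 CPM and had been removed for its doublet score. The part of doublets in these sums was not tested. Fibroblast markers were also present, between 391 and 4403 CPM per Csn3-rich barcode in the basal sort. In irradiated Csn3-rich barcodes they ranged between 0 and 2300 CPM.

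Individual barcodes show that spread. The irradiated cell with 8 Csn3 UMIs (mouse 2, cluster 4) had 176 Acta2, 15 Krt5, 9 Krt8 and 4 Krt18 UMIs. The irradiated cell with 24 Csn3 UMIs (mouse 2, cluster 14) had 2 Acta2, 0 Krt5, 377 Krt8 and 282 Krt18 UMIs, and 1050 of Wfdc18. The irradiated cell with 134 Csn3 UMIs (mouse 1, cluster 14) had 0 Acta2, 0 Krt5, 7 Krt8, 3 Krt18 and 22 Wfdc18 UMIs. The first was rich in myoepithelial and basal transcripts, the second in luminal keratins and the third in neither.

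Several genes, picked after their values were seen, were detected beside Csn3 in both libraries. Mia, a small secreted protein, was detected in 19 of 21 irradiated and 18 of 18 basal sort Csn3-rich barcodes. Its level was 1206 CPM in irradiated Csn3-rich barcodes, against 13.8 CPM in other irradiated cells, and 3343 CPM in basal sort Csn3-rich barcodes, against 288 CPM in the others.

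Igfbp2, a secreted binder of insulin-like growth factors, had 1153 CPM against 3.68 CPM in the irradiated library and 1166 CPM against 106 CPM in the basal sort, again Csn3-rich against other cells. Trf, the iron carrier transferrin, had 428 CPM against 3.26 CPM in the irradiated library and 664 CPM against 13.8 CPM in the basal sort. Ecrg4, which encodes a secreted peptide precursor, had 1042 CPM against 2.38 CPM in irradiated and 2947 CPM against 79.8 CPM in basal sort cells. All 18 basal sort Csn3-rich barcodes had UMIs of these 4 genes and of Apoe, the lipid carrier apolipoprotein E. Of the 21 irradiated ones, 19 had UMIs of Mia, 19 of Apoe, 17 of Igfbp2, 16 of Trf and 13 of Ecrg4. Ecrg4 was also among the 10 leading genes of the myoepithelial-like cluster 4 as a whole.

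The transcription factor Sox10 and the tight-junction gene Cldn10 were also found beside Csn3. Sox10 was detected in 15 of 21 irradiated and 10 of 18 basal sort Csn3-rich barcodes, against 1.95% of other irradiated and 3.25% of other basal sort cells. Cldn10 was detected in 19 of 21 irradiated and 17 of 18 basal sort ones, against 15.5% of other irradiated and 21.4% of other basal sort cells. The siderophore-binding milk and saliva protein Lcn2 was detected in 20 of 21 irradiated and 17 of 18 basal sort ones, against 24.5% of other irradiated and 14.3% of other basal sort cells. Esp4, an exocrine-gland peptide that was frequent in Wfdc18-rich duct cells, had 0 UMIs in every Csn3-rich barcode of both libraries. It was detected in 5.14% of other irradiated and 4.89% of other basal sort cells. At such shares few of the 21 and 18 barcodes would be expected to hold it.

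Most of these genes were more widespread than Csn3 in the basal sort. Ecrg4 had 3 or more UMIs in 18 irradiated, 241 basal sort and 4 untreated barcodes. Trf had as many in 26 irradiated, 136 basal sort and 5 untreated barcodes, and Igfbp2 in 33 irradiated, 639 basal sort and 13 untreated ones. Mia had as many in 303 and Cldn10 in 1162 untreated barcodes. Csn3 had as many in 21 irradiated, 18 basal sort and 0 untreated barcodes. Few untreated cells (4 of 2090) and few irradiated cells (4 of 2005, all Csn3-rich) fell into the myoepithelial-like cluster, against 216 of 3068 in the basal sort. Absence of Csn3 from untreated epithelium was thus measured over few cells of that kind.

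**Figure D3:**
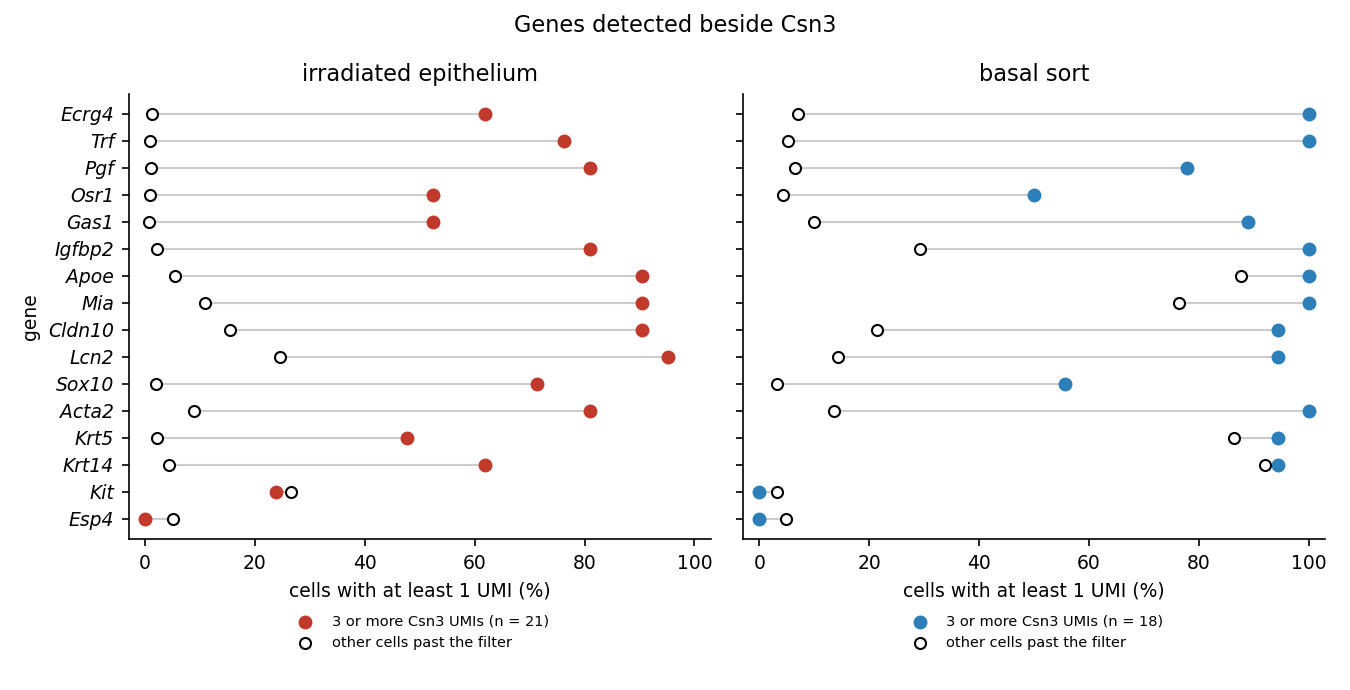
Share of barcodes with at least 1 UMI of each gene, for Csn3-rich barcodes (filled) and other cells past the filter (open), in irradiated epithelium (left) and the basal sort (right). Trf was detected in 16 of 21 irradiated and 18 of 18 basal sort Csn3-rich barcodes, against 0.92% of other irradiated and 5.25% of other basal sort cells. Esp4 was detected in no Csn3-rich barcode, against 5.14% of other irradiated and 4.89% of other basal sort cells.

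Within 1 cluster the cells with at least 1 Csn3 UMI differed from their neighbours in other genes. For this, cells were thinned to 5000 UMIs and genes ranked by the difference in mean log2 level. In irradiated cluster 14 (9 cells with and 79 without Csn3), Mia (2.38), Cldn10 (2.36), Dbi (2.16), Igfbp2 (2.06) and Apoe (2.00) were most above the other cells. Luminal genes were most below them, namely Krt18 (-4.37), Cldn4 (-3.68) and Krt8 (-2.58), with Anxa1 (-3.91), an annexin. Unthinned, Krt18 was at 2830 CPM in Csn3-rich and 21600 CPM in other cells of that cluster, and Elf5, a transcription factor of mammary alveolar cells, at 9.95 CPM in Csn3-rich and 201 CPM in other cells.

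In basal sort cluster 4 (10 cells with and 199 without Csn3) other genes led. Lgals7, a galectin of stratified epithelia, was highest (1.69), followed by Cyp2f2 (1.41), a cytochrome P450, and Mia (1.38). Contractile genes were lower, with Tagln at -2.52 and Acta2 at -1.57. Unthinned, Acta2 was at 2933 CPM in the 9 Csn3-rich cells and 9276 CPM in the 207 others, while Apoe was at 15362 CPM in the Csn3-rich and 16145 CPM in the other cells. Among those 207 other cells Igfbp2 was detected in 95.2%, Apoe in 98.6% and Mia in 94.2%. Mia was at 4090.1 CPM in the 9 Csn3-rich and 1325 CPM in the other cells of that cluster.

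Across the kept cells of 1 library, genes among the 8 most correlated with Csn3 (log scale) were Mia (r = 0.57), Apoe (0.50) and Cldn10 (0.41) over 2005 irradiated cells. Over 3068 basal sort cells they were Osr1 (0.24), Trf (0.22), Ecrg4 (0.22) and Pgf (0.22). The lists of 8 genes from these libraries had 0 genes in common. Such correlations rest on 31 irradiated and 15 basal sort cells with a Csn3 UMI and on cells that share a library and differ in depth, and they are given as a description.

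Csn3 was not accompanied by the other milk caseins. None of the 9 markers of secreting mammary epithelium had a UMI in a Csn3-rich barcode of either library. Csn2, Csn1s1 and Wap, the main caseins and the whey acidic protein of mouse milk, had 0 UMIs in all 3 libraries. Lalba, the milk sugar cofactor α-lactalbumin, had 1 irradiated, 1 basal sort and 26 untreated UMIs over all deposited barcodes. The 6 markers of hormone-sensing mammary cells summed to 138 CPM in irradiated Csn3-rich barcodes, against 111 CPM over all irradiated barcodes, and to 276 CPM in those of the basal sort, against 93.8 CPM over all its barcodes.

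Wfdc18 had another distribution. It was abundant in all 3 libraries, highest per mouse in untreated epithelium. Irradiated mice 1, 2 and 3 had 702, 1755 and 1036 CPM (1164 ± 538, SD, n = 3). The basal sort had 223, 614 and 143 CPM (327 ± 252, SD, n = 3). Untreated mice had 4044, 3896 and 5101 CPM (4347 ± 657, SD, n = 3).

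The 3 groups did not overlap. Mice of the 2 groups also did not overlap in 58% of 11887 tested genes for irradiated against untreated and 77.3% of 12884 for basal sort against untreated epithelium. On the log2 scale the ratio of group means was -1.90 for irradiated over untreated and -3.73 for basal sort over untreated, the second -4.57 without basal sort mouse 2. The irradiated difference depended on which barcodes were counted. Over all deposited barcodes Wfdc18 stood at 1497 CPM in irradiated, 368 CPM in basal sort and 1649 CPM in untreated barcodes, a log2 ratio of -0.14 for irradiated over untreated. Cells past the filter without a hashtag call had 2501 CPM in the irradiated and 450 CPM in the untreated library, and barcodes that failed the filter had 237 CPM in the irradiated and 528 CPM in the untreated library. Acinar markers summed to 6342 CPM over all irradiated and 143534 CPM over all untreated barcodes, and their part in the Wfdc18 difference was not tested.

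Clusters 7 and 14 held most Wfdc18 UMIs in every library. Cluster 7, intercalated duct-like, held 88.9% of the Wfdc18 UMIs of untreated kept cells in 521 cells, at 31249, 41054 and 33287 CPM in mice 1, 2 and 3. It held 92.4% of those of the basal sort in 111 cells, at 27347, 13400.3 and 14795 CPM. In irradiated epithelium it had only 10 cells, at 16656 CPM, and the 92 cells of cluster 14 held 70.7% of the Wfdc18 UMIs, at 10058, 26378 and 30930.4 CPM in mice 1, 2 and 3. When irradiated cells were clustered alone, the acinar-like cluster of 108 cells, 75 of them from joint cluster 14, held 80.2% of the irradiated Wfdc18 UMIs.

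Per cell, Wfdc18 was among the more abundant transcripts of these clusters. In irradiated cluster 14 it had a median of 269.5 UMIs and up to 2013 per cell, 2.48% of all UMIs. In untreated cluster 7 it had a median of 191 UMIs and up to 3284, 3.48% of all UMIs, and in basal sort cluster 7 a median of 60 and up to 633, 1.64% of all UMIs. A UMI was present in 98.9% of irradiated cluster 14 cells, 97.3% of basal sort cluster 7 cells and 99.2% of untreated cluster 7 cells.

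The 2 clusters together made up 5.09% of irradiated cells, 3.65% of basal sort cells and 25.1% of untreated cells. These shares follow the sort, the cell yield and the hashtag calls as well as the gland, and their part in the Wfdc18 difference between groups was not tested.

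Levels in other secreting cells differed between clusters and libraries. The Smgc-led cluster 16, named acinar-like, had 83 untreated cells at 3141, 5674 and 6562 CPM in mice 1, 2 and 3, with a UMI in 65.1% of cells. Smgc encodes submandibular gland protein C, known from neonatal submandibular and from sublingual glands, and the sublingual mucous markers summed to 214009 CPM in that cluster. The acinar-like cluster 15 had 8 irradiated cells, all of mouse 2, at 25135 CPM, against 76.6, 77.7 and 66.0 CPM in mice 1, 2 and 3 of untreated epithelium (107 cells). Those 8 cells held 13.6% of the irradiated Wfdc18 UMIs. Without cluster 15 cells in either group, Wfdc18 averaged 1065 CPM in irradiated mice (1164 CPM with them) and 6218 CPM in untreated mice (4347 CPM with them), a log2 ratio of -2.55.

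Other duct clusters with 50 or more cells in a library had lower levels. The striated duct-like cluster 10 had 893, 365 and 492 CPM in untreated mice 1, 2 and 3. Its 10 irradiated cells had 11609, 561 and 2163 CPM in mice 1, 2 and 3, from 3, 5 and 2 cells, and the 5 irradiated cells of the basal duct-like cluster 3 had 1727 CPM. In the cycling-like cluster 6, the 8 untreated cells had 15428, 12568 and 66.6 CPM in mice 1, 2 and 3, from 4, 2 and 2 cells. Its 9 irradiated cells had 655 CPM. The irradiated granular duct-like cluster 18 had 84.3, 258 and 157 CPM in mice 1, 2 and 3 over 958 cells. Ionocyte-like cells had 262, 159.9 and 274 CPM in irradiated cluster 20, against 172, 77.8 and 122.9 CPM in untreated cluster 13. Untreated cluster 19, also ionocyte-like, had 890, 86.2 and 31.1 CPM in mice 1, 2 and 3, from 20, 33 and 17 cells. Over all ionocyte-like cells Wfdc18 stood at 195 CPM in irradiated and 169 CPM in untreated epithelium. Irradiated and untreated ionocyte-like mice overlapped.

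Free RNA was not measured. For comparison with these values, in the luminal duct-like cluster 8 of untreated epithelium, 18.4% of 38 cells had a Wfdc18 UMI at a median depth of 14993, at most 1 per cell. After thinning to 5000 UMIs the share was 8.11%, leaving out 1 shallower cell. The irradiated granular duct-like cluster 18 had 24.3% at a median depth of 23522 and 11.2% thinned, with up to 648 UMIs in 1 cell. Untreated cluster 16 had 45.1% after thinning and irradiated cluster 20 had 20.7%.

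**Figure D4:**
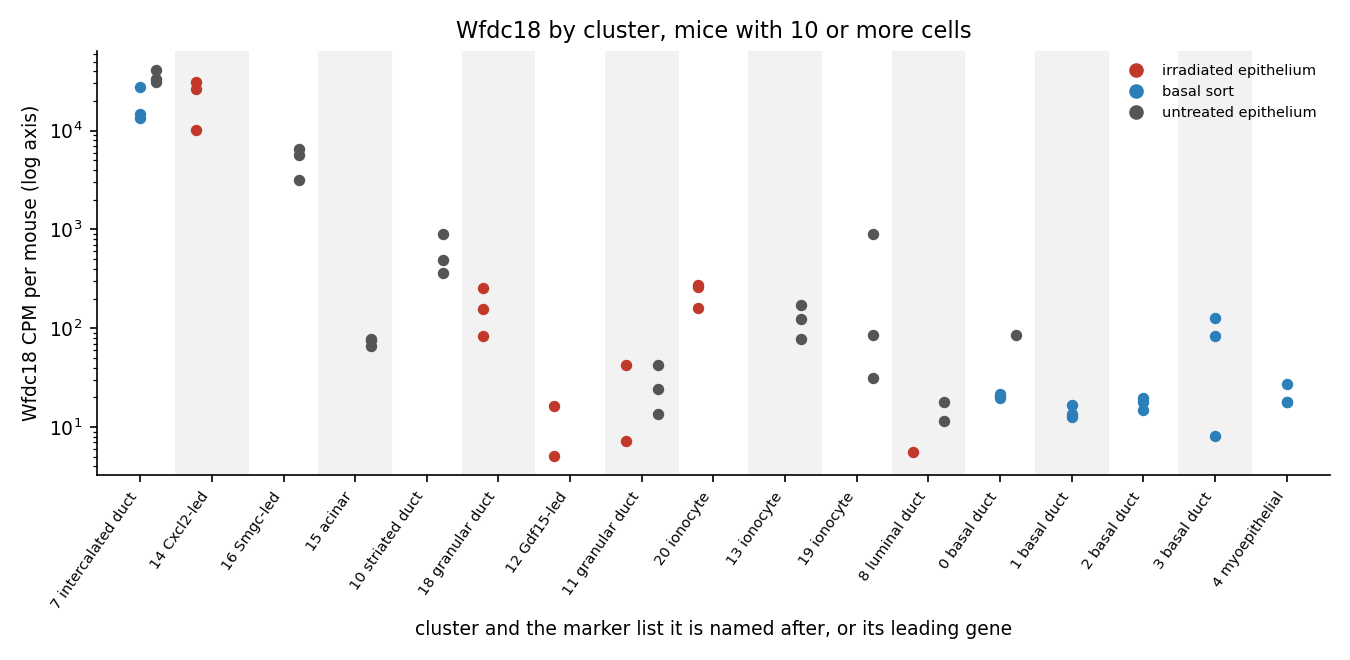
Wfdc18 in CPM (log axis) per mouse in the clusters shown, for mice with at least 10 cells and at least 1 UMI there. Clusters 5, 6, 9 and 17 are not plotted. Irradiated, basal sort and untreated mice are in separate colours, from left to right within a cluster. Clusters 7 and 14 lie above 10000 CPM in all plotted mice, and untreated mice 1 and 2 of the luminal duct-like cluster 8 lie at 17.9 and 11.5 CPM.

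Several genes were distributed like Wfdc18 over the kept cells (log scale). Over 2005 irradiated cells the leading ones were Ccnd1 (r = 0.62), the cell cycle regulator cyclin D1, Ctsh (0.61), the lysosomal protease cathepsin H, and Gjb2 (0.56), a connexin of gap junctions. Over 3068 basal sort cells Car2 (0.80), a carbonic anhydrase, led. Over 2090 untreated cells they were Esp4 (0.80), Car2 (0.80), Gjb2 (0.78), Ctsh (0.74) and Ccnd1 (0.72). These points share a library and its depth range, and the values describe likeness over cells only.

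Csn3 and Wfdc18 were compared in the same barcodes. Their correlation over kept cells was 0.11 in irradiated epithelium and -0.010 in the basal sort. In the irradiated library 146 of 3319 barcodes had 100 or more Wfdc18 UMIs, and 7 of these were also Csn3-rich. In the basal sort 63 barcodes and in the untreated library 530 barcodes had 100 or more Wfdc18 UMIs, and none of them was Csn3-rich. Of the Csn3-rich barcodes, 5 of 21 irradiated and 17 of 18 basal sort ones had no Wfdc18 UMI. Of the 7 irradiated barcodes rich in both, 1 was a hashtag doublet (148 Csn3 and 498 Wfdc18 UMIs) and 1 was removed for its doublet score (653 and 384).

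The other genes of milk were tested across all genes with edgeR's quasi-likelihood test on counts summed per mouse, with Benjamini-Hochberg adjustment. The comparisons with untreated epithelium share the same 3 untreated mice, and each mouse was 1 hashtag of a pooled library. Fold changes use trimmed-mean (TMM) scaling and can differ from ratios of the CPM values beside them. In irradiated against untreated epithelium 20.5% of 11887 tested genes were higher and 19.5% lower.

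Of 22 other milk protein and milk fat globule genes, 8 were tested, of which 5 rose (Cidea, Lcn2, Mfge8, Muc1 and Xdh) and 2 fell (Lpo and Pigr). Their median log2 fold change was 0.96, against -0.03 over all tested genes. Lcn2 had 171, 153 and 87.7 CPM in irradiated mice, against 4.20, 9.15 and 8.60 CPM in untreated mice (log2 fold change 3.91 ± 0.32, SE; edgeR adjusted p = 5.2e-05). Mfge8, which coats milk fat globules, had 91.8, 113 and 96.5 CPM in irradiated mice, against 28.4, 25.4 and 34.8 CPM in untreated mice (1.47 ± 0.12; edgeR adjusted p = 4.74e-05). No irradiated mouse overlapped an untreated one in either gene, which held for 58% of the 11887 tested genes.

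Lpo, the antibacterial lactoperoxidase of milk and saliva, fell to 0.148, 2.08 and 0 CPM in irradiated mice, against 37.6, 41.9 and 31.6 CPM in untreated mice (-5.26 ± 0.49; edgeR adjusted p = 9.26e-05). Pigr, which carries immunoglobulin A into secretions, fell by 2.21 on the log2 scale. Lpo is also 1 of the 9 acinar markers, whose sum was 6342 CPM in irradiated and 143534 CPM in untreated barcodes, and the part of acinar RNA in these falls was not tested.

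Of 19 other genes of the casein cluster and related phosphoproteins, 2 were tested in that comparison. Prol1, a proline-rich salivary protein, fell to 8.87, 587 and 5.66 CPM in irradiated mice, against 11829, 13272 and 10922 CPM in untreated mice (-6.22 ± 1.64; edgeR adjusted p = 0.0161). It too is an acinar marker, and the mouse with 587 CPM is mouse 2, which held all 8 irradiated cells of acinar-like cluster 15. Spp1, a secreted phosphoprotein, did not pass the test. The casein genes beside Csn3 were too low to be tested.

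Of 23 other four-disulfide core genes, 3 were tested, of which Slpi and Wfdc2 rose and Wfdc12 fell. Wfdc2 had 2930, 2660 and 2646 CPM in irradiated mice, against 987, 919 and 865 CPM in untreated mice (1.27 ± 0.09; edgeR adjusted p = 2.49e-05). Wfdc12 had 1.18, 19.7 and 0.992 CPM in irradiated mice, against 993, 1057 and 1127 CPM in untreated mice (-7.32 ± 0.98; edgeR adjusted p = 0.000594). Wfdc12 was concentrated in untreated acinar-like cluster 15, at 3129 CPM. Wfdc2 was widespread, at 5854 CPM in irradiated and 4783 CPM in untreated cells of the luminal duct-like cluster 8, 3232 CPM in irradiated cluster 18 and 4135 CPM in basal sort cluster 3.

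Of 19 tested genes of lactogenic hormone signalling, 11 did not pass the test, 2 rose (Jak2 and Socs2) and 6 fell (Cish, Elf5, Id2, Nfib, Prlr and Socs3), beside 20.5% higher and 19.5% lower of all tested genes, with a median log2 fold change of -0.24. Prlr, the prolactin receptor, had 23.7, 18.9 and 19.4 CPM in irradiated mice, against 24.2, 31.5 and 32.7 CPM in untreated mice (-0.84 ± 0.14; edgeR adjusted p = 0.00222). Elf5 fell by 1.68 on the log2 scale. These calls were made over kept cells. Over all deposited barcodes Cish had 67.2 CPM in the irradiated and 38.9 CPM in the untreated library. Id2 (175 and 119 CPM), Nfib (120 and 78.3 CPM) and Socs3 (74.0 and 72.8 CPM) were also higher in irradiated barcodes. Prlr (18.9 and 32.1 CPM) and Elf5 (31.1 and 44.3 CPM) were lower there too. The cause of this dependence was not tested. Stat5a and Stat5b, the transcription factors that act on casein genes in mammary cells, did not pass the test.

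Of 13 tested genes associated with mammary luminal progenitors, 8 rose, among them Krt19, Cd14, Krt8 and Aldh1a3, and 4 fell (Ehf, Elf5, Kit and Sox10). Cd14, a co-receptor for bacterial lipopolysaccharide, had 118, 138 and 134 CPM in irradiated mice, against 34.2, 38.8 and 38.5 CPM in untreated mice (1.5 ± 0.10; edgeR adjusted p = 2.25e-05). The median of the 13 was 0.72, against -0.03 over all tested genes, of which 20.5% were higher and 19.5% lower. Over all deposited barcodes Kit (27.0 CPM irradiated, 15.5 CPM untreated) and Ehf (217 and 124 CPM) were instead higher in the irradiated library. Elf5 (31.1 and 44.3 CPM) and Sox10 (2.43 and 4.82 CPM) were lower there too.

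In basal sort against untreated epithelium, 36.6% of 12884 tested genes were higher and 36.4% lower. Of 10 tested milk genes, 4 rose (Cd36, Fabp3, Lcn2 and Mfge8) and 4 fell (Cidea, Lpo, Muc1 and Pigr), and their median was 0.05. Lcn2 had 53.5, 38.1 and 43.3 CPM in basal sort mice, against 4.20, 9.15 and 8.60 CPM in untreated mice (2.11 ± 0.25; edgeR adjusted p = 4.69e-05). Among lactogenic genes 8 rose and 8 fell of 20, with Prlr at -2.65 and Elf5 at -3.39. Of 13 luminal progenitor genes, Lcn2 and Trf rose and 8 fell, with Kit, the receptor of intercalated duct cells, at -3.08. Of 5 four-disulfide core genes, 3 rose and 2 fell, and Prol1, the 1 tested gene of the casein cluster list, fell.

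Within ionocyte-like cells, 17.3% of 9382 tested genes were higher and 13.4% lower in irradiated epithelium. These cells lay mostly in cluster 20 in irradiated and in clusters 13 and 19 in untreated epithelium. Of 6 tested milk genes, 4 rose (Cidea, Mfge8, Muc1 and Pigr), 0 fell and the median was 1.41. Mfge8 had 397, 288 and 273 CPM in irradiated mice, against 60.1, 52.6 and 73.9 CPM in untreated mice (2.34 ± 0.15; edgeR adjusted p = 1.34e-07). Cidea, a lipid droplet protein that acts in milk fat secretion, had 133, 124 and 128 CPM in irradiated mice, against 53.7, 60.4 and 40.5 CPM in untreated mice (1.28 ± 0.12; edgeR adjusted p = 5.55e-06). Of 10 luminal progenitor genes 6 rose and Elf5 fell, and of 19 lactogenic genes 3 rose and 8 fell. Prol1, an acinar marker, fell to 9.65, 5.27 and 4.17 CPM in irradiated ionocyte-like cells, against 630.0, 557 and 1801 CPM in untreated ones, and the part of free acinar RNA in the calls of this class was not tested.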

How the data were processed

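Per the submitters' processing notes, Cell Ranger 6.1.2 and the mm10 build were used. The authors deposited UMI counts per gene and barcode for 3 RNA libraries (10x 3' v3 chemistry, per the labels' protocols) together with hashtag antibody counts for the same barcodes. The 2 genes and all gene lists were chosen with earlier results of these data known.

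The filter kept barcodes with 500 or more genes and no more than 20% mitochondrial UMIs. Mice were called with HTODemux (Seurat 5.3.0, R 4.3.3, positive quantile 0.99). Doublets were removed with hashtags and Scrublet. Cells were clustered with scanpy 1.11.5 (Leiden at resolution 1, 15 neighbours, 30 components, 2000 variable genes). Names needed at least 3 raised markers of a list. Counts were summed per mouse and tested with edgeR 4.0.16 (filterByExpr, TMM scaling, adjusted p threshold 0.05), with DESeq2 1.42.0 as an alternative, and checked on simulated data. Named genes were, per list, up to 4 called genes with the largest fold change and a mean of at least 10 CPM, and list genes of at least 100 CPM in a class. The 8 genes most correlated with each member were also listed, of which some are not reported here. Mice are replicates within 1 library per group, so the p-values measure the spread between the hashtagged mice of pooled libraries. Intervals are exact 95% intervals for counting error.

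Same-numbered hashtags were not treated as pairs of mice in the main tests. Tests within intercalated and granular duct-like cells were not run, because a mouse had under 20 cells or a cluster's leading genes were markers of other lists.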

Additional observations from a re-analysis of the deposited data

Results flagged for a closer look

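Csn3 was also present in cells that passed the filter but had no hashtag call and so entered no comparison by mouse. In the irradiated library 295 such cells had 115 CPM of Csn3 (438 UMIs), with 4 Csn3-rich cells. In the basal sort 998 such cells had 20.5 CPM (205 UMIs), with 6 Csn3-rich cells. The 1778 such cells of the untreated library had 0 Csn3 UMIs. Both values were singled out because they lie above the untreated level in cells outside the comparisons by mouse. Leaving these cells out lowers the Csn3 UMIs counted per mouse, and which mice they came from cannot be told from the calls used here.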

How the results depend on the processing

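No member ratio changed direction under the alternatives run. Shares and gene counts have no direction, so only their size was compared, and some moved. Mice called by hashtag share gave log2 ratios for Csn3 of at least 6.92 (irradiated over untreated) and at least 5.42 (basal sort over untreated), since 0 untreated UMIs remained and 3 counts stood for them, and 2819 called genes for irradiated against untreated epithelium, in place of 4752. All deposited barcodes gave 10.47 for Csn3 in the basal sort (7.89 by mouse) and, for Wfdc18, -0.14 in irradiated epithelium (-1.90 by mouse) and -2.16 in the basal sort (-3.73 by mouse). The cause was not tested. Within ionocyte-like cells DESeq2 called 1902 genes and the stricter cell filter (1000 or more genes, no more than 10% mitochondrial UMIs) 1323, in place of 2880. With each library clustered alone, clusters named intercalated duct-like held 0.4% of irradiated Csn3 UMIs (90.7% jointly), 1.07% of irradiated Wfdc18 UMIs (73.1% jointly) and 88.9% of untreated Wfdc18 UMIs (89.7% jointly), because most irradiated cells of cluster 14 then lay in acinar-like and myoepithelial-like clusters.

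Leaving out 1 mouse in turn gave log2 ratios for Csn3 of at least 8.53 to 11 (irradiated) and at least 5.96 to 8.42 (basal sort), where the lower end puts 3 counts for 0 untreated UMIs, and for Wfdc18 of -2.32 to -1.64 and -4.57 to -3.38. Called genes numbered 3435 to 4604 for irradiated epithelium, 8838 to 9591 for the basal sort and 1987 to 2687 within ionocyte-like cells. Over clusters 7 and 14 together, which the report gives by number, the ranges were 9.27 to 10.99 for Csn3 (all lower bounds, with 3 counts for 0) and -0.90 to -0.30 for Wfdc18. Only 3 of the untreated cells in these ratios were of cluster 14, against 92 of the irradiated ones. With the hashtag number as a replicate block, 3876, 9184 and 2731 genes were called, in place of 4752, 9403 and 2880. Same-numbered mice correlated at -0.18 to 0.04, which gave no sign of pairing. The libraries differ in sort, cell makeup or irradiation, so these values cannot tell whether any of them shared mice. Over all deposited barcodes the class ratios could not be computed, since only kept cells were clustered. Leaving out cluster 15 in both groups, chosen after the data were seen, gave -2.55 for Wfdc18. One library per group, lower quality and few myoepithelial-like cells in the untreated library limit every comparison.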
